A study of Mus musculus with 12 samples.

Results

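The receptors through which colony-stimulating factors, interleukin-3 and related cytokines act on myeloid cells were followed in MLL-AF9 leukemia cells grown in mice with different immune systems. The genes were *Csf3r*, *Csf2ra*, *Csf2rb*, *Csf2rb2*, *Il3ra*, *Csf1r*, *Flt3* and *Kit*, chosen by name as the hematopoietic growth factor receptors and found as 8 of the 55401 genes of the expression table. All 8 passed the limit of a mean of at least 1 TPM (a transcript level corrected for gene length and scaled to a common total) and belong to the 15026 genes tested.

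The leukemia was made by retroviral transduction of mouse bone marrow progenitors with the fusion oncogene MLL-AF9 and GFP, and was passed through mice many times, at last without irradiation of the host. The same cells were then given to 3 hosts. WT hosts were C57BL/6J mice, *Rag2*-/- hosts (C57BL/6J-Rag2em3Lutzy/J) had no mature T or B cells but retained NK cells, and NSG hosts had neither T, B nor NK cells. NSG is a strain of its own and not C57BL/6J, so strain and immune system cannot be told apart in comparisons with NSG. The mice were female and 8 to 12 weeks old, and no group was treated. GFP+ cells were sorted from the bone marrow of moribund mice and poly-T selected mRNA was sequenced from both ends, with 4 libraries per host that the labels call biological replicates. The fusion oncogene and GFP are shared by all 12 libraries, the leukemia is a single serially transplanted line, and the hosts' gene defects are not those of the leukemia cells. *Il2rg*, which is disrupted in NSG mice, was at 45.1 to 54.3 TPM in WT, 42.2 to 53.2 in *Rag2*-/- and 41.2 to 61.4 in NSG libraries.

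The libraries held 16.0 to 42.8 M counted reads (M, 1000000), as recovered from the spacing of low TPM values, with a median of 16.9 M in WT, 28.4 M in *Rag2*-/- and 20.1 M in NSG libraries. A count of 3 reads on a gene of 1 kb corresponded to 0.249 to 0.647 TPM. The receptors rested on 1040 to 17944 reads per gene and library, and the part of counting error in the spread between libraries was not tested. The leukemia markers *Ptprc*, *Itgam*, *Hoxa9*, *Hoxa10*, *Meis1*, *Mpo* and *Cd34* were measured in every library. They were not alike in all hosts: *Mpo* had a mean of 553 TPM in WT, 145 in *Rag2*-/- and 442 in NSG libraries. The sum of 12 neutrophil markers without *Chil3* stood apart in *Rag2*-/- libraries. It was 210 to 338 TPM in WT, 688 to 2155 in *Rag2*-/- and 328 to 358 in NSG libraries, with *Rag2*-/- replicate 4 the lowest of its host. With *Chil3* included the sums were 1424 to 3178, 2324 to 10735 and 1780 to 3140 TPM. On that sum *Rag2*-/- replicate 4 was within the range of the other hosts. Dendritic cell markers summed to at most 1.504 TPM, T and NK cell markers to at most 8.98 (most of the mean in each host *Nkg7*, with *Cd3e* at 0 throughout), B cell markers to at most 9.07 (*Ms4a1* at 0 throughout) and erythroid markers to at most 12.1. The NK cell receptor gene *Ncr1* was at 0 in all WT and NSG libraries and at 0.108 to 0.531 TPM in *Rag2*-/- libraries, and the granzyme gene *Gzma* was at 0 in WT, at 0.624 to 2.39 TPM in *Rag2*-/- and at 0 in all NSG libraries but replicate 2 (1.67).

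Growth factor receptors of this kind fall into a pair of families. The class I cytokine receptors have no enzyme of their own and signal through JAK kinases bound to their tails, chiefly to STAT5 and STAT3, the RAS-MAPK cascade and PI3K. *Csf3r* binds G-CSF, the main driver of neutrophil production. *Csf2ra* binds GM-CSF and pairs with the common beta chain *Csf2rb*, while *Il3ra* binds IL-3 and pairs with *Csf2rb* or, in mice, with the IL-3-specific beta chain *Csf2rb2*. *Csf1r*, *Flt3* and *Kit* are receptor tyrosine kinases for M-CSF and IL-34, FLT3 ligand and stem cell factor, and are associated with monocytes, early progenitors and dendritic cells, and stem cells and mast cells. MLL-AF9 leukemia in mice resembles granulocyte-macrophage progenitors, which carry receptors of both families.

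The receptor gene with the largest difference between hosts, *Csf2rb2*, has a near copy beside it, and the sequences below show how far reads can tell them apart. *Csf2rb2* (ENSMUSG00000071714, minus strand) spans chr15:78282507-78305721 and *Csf2rb* (ENSMUSG00000071713, plus strand) chr15:78325752-78353847 of GRCm38 (mm10), with starts 20031 bases apart. Their longest coding transcripts in GENCODE M21 were identical at 91.7% of 4617 aligned bases, and at 95.2% of the 2628 aligned coding bases, with a longest identical coding run of 242 bases. Of all windows of 50 bases, 19.0% of those of *Csf2rb2* occurred in *Csf2rb* too, and 18.4% the other way round. The coding stretch of 60 bases that differed most, at 13 bases shown in capitals, lies in exon 5 of *Csf2rb* (chr15:78338893-78338952) and exon 4 of *Csf2rb2* (chr15:78294379-78294438), each written 5′ to 3′ along its own gene.
Csf2rb: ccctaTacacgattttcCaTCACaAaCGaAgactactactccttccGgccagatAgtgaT
Csf2rb2: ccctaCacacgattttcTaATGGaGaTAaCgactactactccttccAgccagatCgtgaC
How reads that match both genes were counted is not given in the sources used here, so the levels of this pair are uncertain to that extent.

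The 250 bases before the start site, from RefSeq on GRCm38.p6, were found for 6 of the 8 receptors (not for *Csf2rb* and *Csf1r*). They were searched on both strands for the core of PU.1 sites (AGGAAG), for RUNX sites with the letters TGTGGT, and for C/EBP sites (TTGCNNAA). The search also took in the letters AGATAA of GATA sites and the STAT site TTCNNNGAA, and the matches did not overlap. The windows of 2 genes are shown, those with the largest difference between hosts and with the highest level. Matches are in capitals in *Csf2rb2* (chr15:78305722-78305971, minus strand) and *Csf2ra* (chr19:61228419-61228668, minus strand).
Csf2rb2: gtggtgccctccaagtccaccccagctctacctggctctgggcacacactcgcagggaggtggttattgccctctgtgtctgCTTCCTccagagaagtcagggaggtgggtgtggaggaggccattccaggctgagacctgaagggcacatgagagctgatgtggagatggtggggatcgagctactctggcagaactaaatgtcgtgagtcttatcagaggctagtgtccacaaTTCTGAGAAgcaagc
Csf2ra: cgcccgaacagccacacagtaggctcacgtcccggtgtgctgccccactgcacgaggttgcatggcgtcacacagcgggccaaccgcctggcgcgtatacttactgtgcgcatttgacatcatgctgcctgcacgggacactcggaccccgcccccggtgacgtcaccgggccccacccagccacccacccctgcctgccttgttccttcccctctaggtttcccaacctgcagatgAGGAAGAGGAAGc
In *Csf2rb2* the letters AGGAAG occurred once, on the opposite strand, and a match to TTCNNNGAA began 15 bases before the start. In *Csf2ra* 2 matches to AGGAAG stood next to each other, beginning 13 and 7 bases before the start. Of the other windows, *Csf3r* held 4 matches to AGGAAG, *Kit* held 1, *Il3ra* held 1 directly before a match to TTGCNNAA, and *Flt3* held none of the 5 motifs. AGGAAG was found in 29.5%, TTCNNNGAA in 7.02% and TTGCNNAA in 9.56% of 32851 promoter windows of this length, with 14.0% for TGTGGT and 9.99% for AGATAA.

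All 8 receptors were expressed in every library, and their order was much the same in the 3 hosts. The level was highest for the GM-CSF receptor alpha chain *Csf2ra*, at a mean of 509 TPM over 12 libraries, followed by *Csf3r* (232), *Csf2rb* (202), *Flt3* (176), *Csf1r* (112), *Kit* (94.8), *Il3ra* (82.9) and *Csf2rb2* (62.9). *Csf2ra* lay above *Csf3r*, and *Flt3* above *Csf1r*, with ranges apart over all 12 libraries. *Csf1r* was above *Kit* in each of the 12 libraries although their ranges overlapped. The neighbours *Csf3r* and *Csf2rb*, *Csf2rb* and *Flt3*, *Kit* and *Il3ra*, and *Il3ra* and *Csf2rb2* kept this order in 9, 10, 9 and 11 of the 12 libraries and were not set apart by their spread. Levels of different genes also depend on the length that counts are divided by, and the TPM fitted the joined exons of each gene. For *Csf2rb* these have 7277 bases and its longest coding transcript 4900, while *Csf2rb2* has 4740 in both. The order was not redone with transcript lengths. In the sum of the 8 receptors, WT libraries had 1485 ± 74.5 TPM (SD, n = 4), *Rag2*-/- libraries 1556 ± 73.2 and NSG libraries 1372 ± 37.8.

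**Figure D1:**
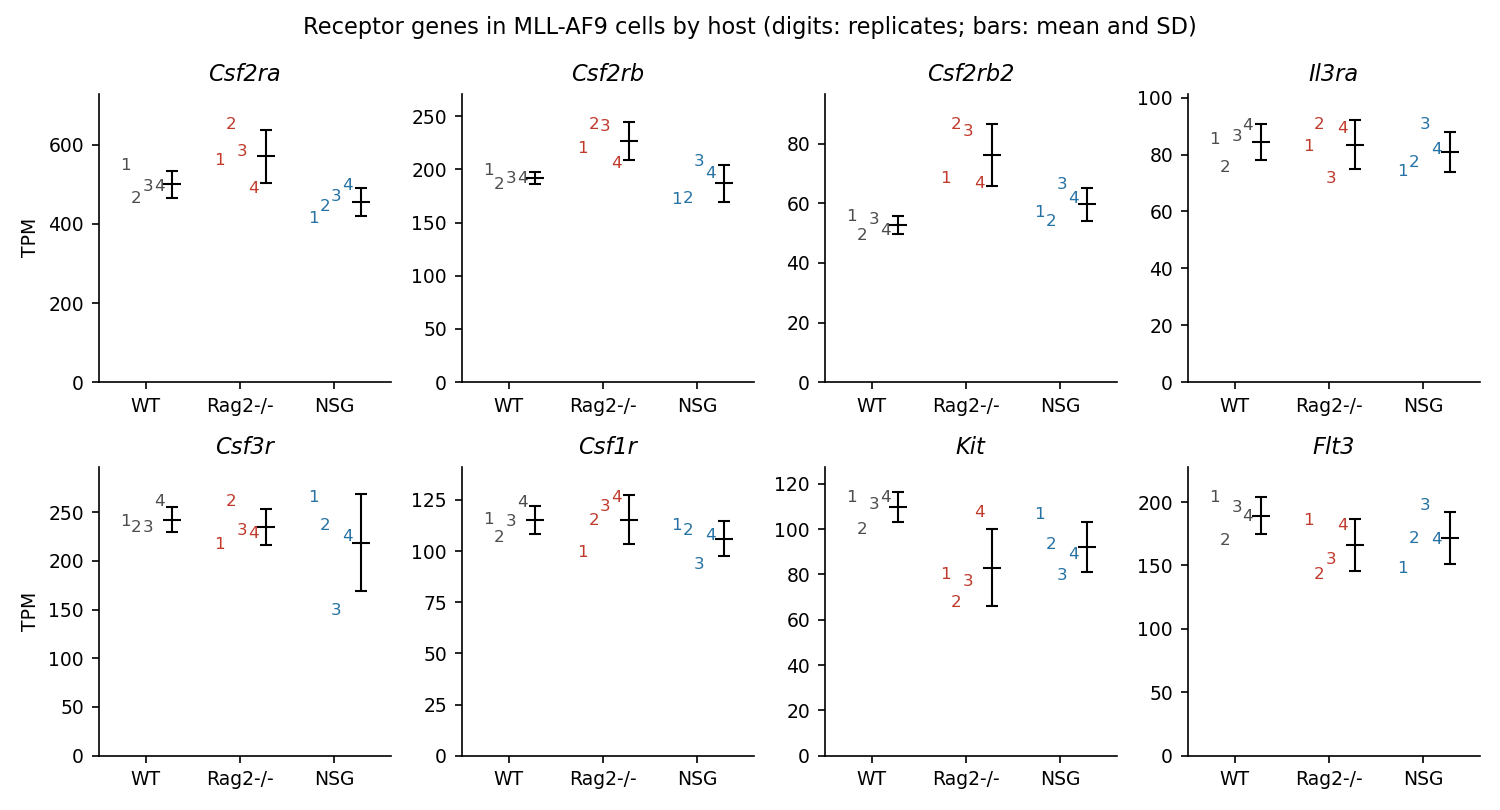
TPM of the 8 receptor genes by host, with 1 panel per gene, a digit for each replicate and black bars for mean and SD (n = 4), on axes that start at 0. The *Rag2*-/- values of *Csf2rb2* and *Csf2rb* lie above all WT values, 3 of the 4 *Rag2*-/- values of *Kit* lie below them, and the hosts overlap for the other 5 genes.

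To ask whether the host went with receptor expression, the 3 hosts were compared in a single limma fit on log2(TPM + 1). A gene counted as called when its p-value, adjusted over all genes tested by the Benjamini-Hochberg method, was below 0.05 and its log2 fold change beyond 0.5. The comparisons of *Rag2*-/- with WT and with NSG share the *Rag2*-/- libraries, so their values are given side by side and are not separate support for each other. Between *Rag2*-/- and WT mice, 1 of 8 receptors, *Csf2rb2*, was called, against 1.47% of all genes tested. None was called lower, and 3 (*Csf2rb2*, *Csf2rb* and *Kit*) had an unadjusted p below 0.05, against 20.9%. Between *Rag2*-/- and NSG mice 0 receptors were called by limma or by voom, against 0.213% of all genes, and 3 had an unadjusted p below 0.05, against 12.6%. Between NSG and WT mice 0 were called by either tool and 0 had an unadjusted p below 0.05, where 0% and 9.16% of all genes did.

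**Figure D2:**
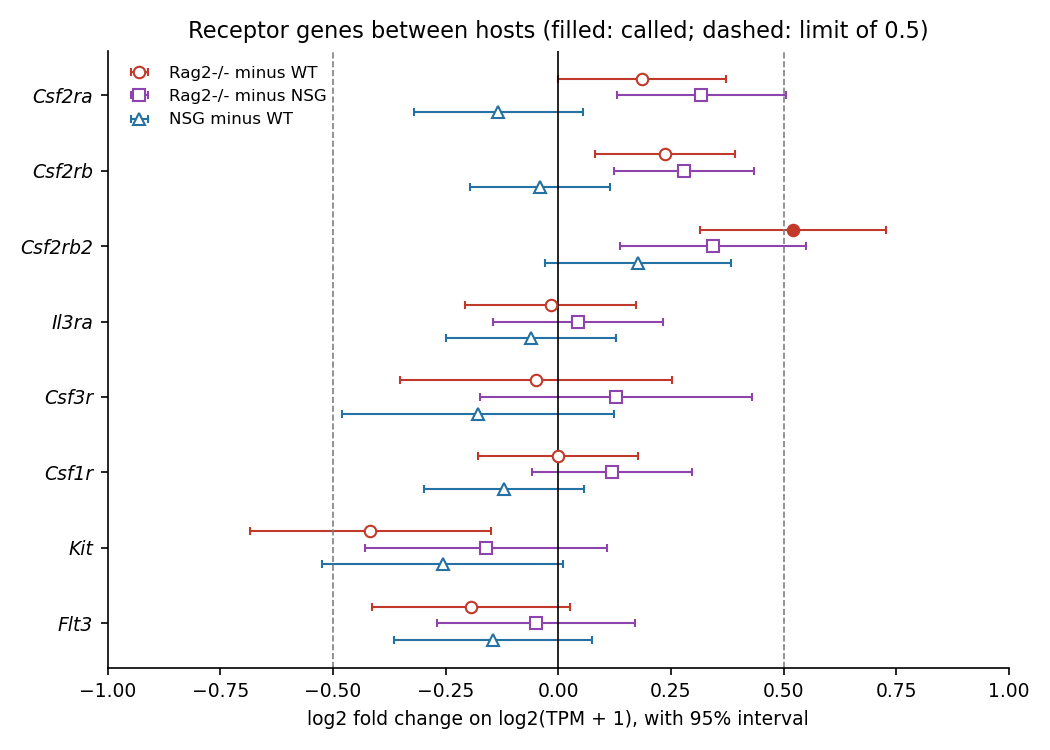
Log2 fold change on the log2(TPM + 1) scale with its 95% interval for each receptor gene in the 3 comparisons, with a filled symbol for a called gene and dashed lines at the limit of 0.5. *Csf2rb2* between *Rag2*-/- and WT mice, at 0.52, is the 1 filled symbol, and its interval from 0.31 to 0.73 extends below the limit.

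The beta chain used only by IL-3, *Csf2rb2*, was highest in *Rag2*-/- mice. It was at 55.6, 49.2, 54.6 and 51.0 TPM in WT replicates 1 to 4, at 68.2, 86.5, 84.1 and 66.6 in *Rag2*-/- and at 56.9, 53.8, 66.5 and 61.7 in NSG libraries. Every *Rag2*-/- library was above every WT library, and above every NSG library by a narrow margin, since *Rag2*-/- replicate 4 and NSG replicate 3 differed by less than the spread within either host. The mean was 1.45 times that of WT, a log2 fold change of 0.52 (SE 0.095, adjusted p = 0.0187 in limma). Against NSG mice the log2 fold change was 0.34 (95% interval 0.14 to 0.55, adjusted p = 0.149). NSG exceeded WT by 0.18 (interval −0.03 to 0.38, adjusted p = 0.592), which is also the difference between the other 2 values. The call against WT stood close to the limit on the fold change: it was lost after median-ratio scaling (0.50, just under the limit, adjusted p = 0.0278) and with voom on recovered reads (0.49, adjusted p = 0.0143). It was also lost without WT replicate 2 (adjusted p = 0.0735), *Rag2*-/- replicate 2 (0.0605) or *Rag2*-/- replicate 3 (0.0684).

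The common beta chain *Csf2rb* lay in the same direction by a smaller amount and was not called. It was at 199, 186, 191 and 191 TPM in WT, 219, 242, 240.0 and 205 in *Rag2*-/- and 171, 173, 207 and 196 in NSG libraries. All *Rag2*-/- libraries were above all WT libraries, while NSG replicate 3 was above *Rag2*-/- replicate 4. With *Csf2rb2*, this made 2 of 8 receptors whose *Rag2*-/- libraries all lay above the WT libraries, as did 10.2% of all genes tested, and *Csf2rb2* alone did so against the NSG libraries, as did 4.34%. On the log2 scale *Csf2rb* exceeded WT by 0.24 (SE 0.071) at an adjusted p of 0.0898, and NSG by 0.28 at an adjusted p of 0.130.

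The share of the 2 beta chains differed between hosts. *Csf2rb2* was at 27.4 ± 0.960% of the level of *Csf2rb* in WT (SD, n = 4), 33.6 ± 2.17% in *Rag2*-/- and 32.0 ± 0.902% in NSG libraries, with no WT library (at most 28.5%) reaching the lowest value of the other hosts (31.1% in both). This ratio was chosen after the values were seen and was not tested. Reads that fit both genes enter it on either side. Its size also depends on the exon lengths used, which are the same in all hosts.

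The alpha chain *Csf2ra*, the most abundant receptor, was not called in any comparison. Its levels were 547, 463, 494 and 496 TPM in WT, 559.6, 651, 582 and 489 in *Rag2*-/- and 415, 445, 469 and 497 in NSG libraries. *Rag2*-/- replicates 1 to 3 were above all libraries of the other hosts and *Rag2*-/- replicate 4 was among them. The log2 fold change was 0.19 against WT (interval −0.0017 to 0.37, adjusted p = 0.244) and 0.32 against NSG (interval 0.13 to 0.50, adjusted p = 0.141). Over the 12 libraries *Csf2ra* and *Csf2rb* correlated at a Pearson r of 0.90 and *Csf2rb* and *Csf2rb2* at 0.89. After subtraction of each host's mean, r was 0.83 and 0.91. These are descriptions over libraries that share depth and composition.

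*Il3ra*, the alpha chain that binds IL-3, showed no difference between hosts beyond its spread. It was at 85.4, 75.3, 86.5 and 90.3 TPM in WT, 82.7, 90.6, 71.6 and 89.2 in *Rag2*-/- and 74.0, 77.3, 90.5 and 81.7 in NSG libraries, with overlapping hosts. The interval of the log2 fold change between *Rag2*-/- and WT ran from −0.21 to 0.17 (adjusted p = 0.933). The alpha chain was 1.61 ± 0.112 times the IL-3-specific beta chain in WT, 1.11 ± 0.211 times in *Rag2*-/- and 1.36 ± 0.0593 times in NSG libraries. The *Rag2*-/- (0.852 to 1.34) and NSG (1.30 to 1.44) ranges of this ratio overlapped. As *Il3ra* was nearly level, the ratio mostly restates the values of *Csf2rb2*. It was not tested, and exon lengths and reads shared with *Csf2rb* enter it too.

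The G-CSF receptor *Csf3r* was nearly level between *Rag2*-/- and WT mice. It was at 240.1, 235, 234 and 261 TPM in WT, 217, 261, 231 and 229 in *Rag2*-/- and 265, 237, 149 and 225 in NSG libraries. All hosts overlapped, and NSG replicate 3 was the lowest of the 12. The log2 fold change was −0.05 (interval −0.35 to 0.25, adjusted p = 0.872) against WT and 0.13 (interval −0.17 to 0.43, adjusted p = 0.771) against NSG, and without NSG replicate 3 the latter turned to −0.05. *Csf3r* is a receptor of the neutrophil lineage. Beside it, 11 of 13 neutrophil markers were called higher than in WT (median log2 fold change 2.97), against 1.14% of all genes, and 9 of 13 higher than in NSG (median 2.42), against 0.193%.

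Among the receptor tyrosine kinases, *Kit* had the largest difference. It was at 113.7, 99.98, 111 and 113.7 TPM in WT, 79.8, 67.7, 76.9 and 107 in *Rag2*-/- and 106, 93.1, 79.6 and 88.7 in NSG libraries. *Rag2*-/- replicates 1 to 3 were below every WT library, and *Rag2*-/- replicate 4 was within the range of WT. The mean was 0.756 times that of WT, a log2 fold change of −0.42 (SE 0.12, interval −0.69 to −0.15, adjusted p = 0.0839), which was not called. Without *Rag2*-/- replicate 4 it was −0.55 and was called (adjusted p = 0.0144), and voom gave −0.43 with an adjusted p of 0.0282, inside the limit on the fold change. The adjusted p reached 0.216 without *Rag2*-/- replicate 3. The NSG libraries were within the range of *Rag2*-/- and 1 of them also within that of WT. Their mean was at −0.26 against WT (adjusted p = 0.559), and the *Rag2*-/- mean at −0.16 against theirs (interval −0.43 to 0.11, adjusted p = 0.643).

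*Flt3* and *Csf1r* were not called. *Flt3* was at 203, 169, 196 and 189 TPM in WT, 185, 143, 155 and 182 in *Rag2*-/- and 148, 171, 197 and 170.1 in NSG libraries, with overlapping hosts and a log2 fold change of −0.19 (interval −0.41 to 0.03, adjusted p = 0.301) between *Rag2*-/- and WT. *Csf1r*, the M-CSF receptor of monocytes and macrophages, was at 116, 107, 115 and 124 TPM in WT, 99.1, 115, 122 and 126 in *Rag2*-/- and 113, 110.0, 93.5 and 108 in NSG libraries. Its means in *Rag2*-/- and WT mice were both at 115 TPM, and the interval of the log2 fold change ran from −0.18 to 0.18 (adjusted p = 0.997). *Hmgxb3* overlaps *Csf1r* on the opposite strand, as *Gm48860* does *Il3ra*, and whether the counting used strand is not given in the sources used here.

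Values of other cell types stood beside these results and were compared library by library. In *Rag2*-/- replicates 1 to 4, *Csf2rb2* was at 68.2, 86.5, 84.1 and 66.6 TPM. Beside it, the neutrophil markers without *Chil3* summed to 2155, 1907, 2003 and 688 TPM, and with *Chil3* to 8555, 9419, 10735 and 2324 TPM. Replicate 4 was the lowest of its host in all of these. Replicate 1 had the highest sum without *Chil3* and a *Csf2rb2* level near that of replicate 4. In NSG replicate 3, *Csf2rb2* at 66.5 TPM stood beside a sum without *Chil3* of 328 TPM. The sum over 8 mast cell and basophil markers was 35.2 to 48.7 TPM in WT, 62.6 to 70.9 in *Rag2*-/- and 46.1 to 62.1 in NSG libraries. Most of it was *Mcpt8*, which was called higher than in WT (log2 fold change 0.58, adjusted p = 0.0338). The other tested marker of this list, *Ms4a2*, was not called (0.10, adjusted p = 0.791). *Prss34* was at 0 in all WT and NSG libraries and at 0 to 2.88 TPM in *Rag2*-/- libraries, while *Cma1* and *Tpsb2* were at 0 in all libraries. Macrophage markers summed to 101 to 108, 109.9 to 126 and 65.1 to 121 TPM, most of it *Adgre1* and *Vcam1*, with 1 of 7 tested, *C1qc*, called higher than in WT. The complement genes *C1qa*, *C1qb* and *C1qc*, which macrophages make, were at 4.53 TPM or more, 5.43 or more and 2.76 or more in *Rag2*-/- libraries and at no more than 3.66, 4.47 and 2.12 in the others. Their log2 fold changes against WT were 1.53, 1.31 and 1.28 (adjusted p = 0.0894, 0.0506 and 0.0251). The other tested macrophage markers were at 0.52 (*Mrc1*), 0.16 (*Vcam1*), −0.04 (*Cd163*) and −0.07 (*Adgre1*), none of them called. Of the 7 leukemia markers, *Mpo* was called lower than in WT (log2 fold change −2.13, adjusted p = 0.0189 in limma). Of all genes tested, 1.47% were called in either direction. For *Kit*, *Rag2*-/- replicate 4, which had the level of WT, was also the *Rag2*-/- library with the fewest neutrophil transcripts. It also had the most *Mpo* of its host (287 TPM, against 70.1 to 121 in the other 3 and 508 to 593 in WT). The part of these cells in the receptor values was not tested, and fewer cells of a type and less RNA per cell cannot be told apart in bulk samples.

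**Figure D3:**
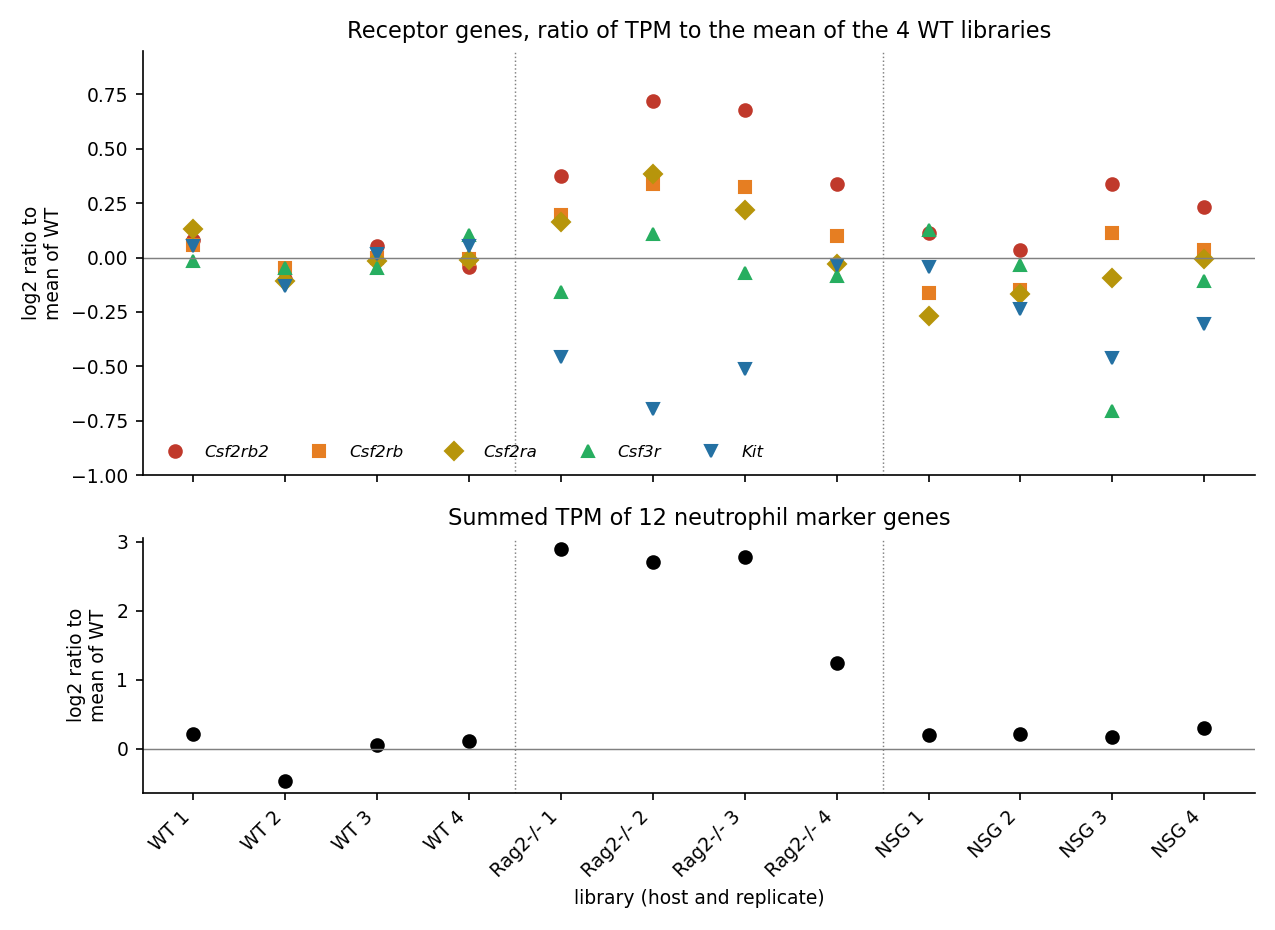
Log2 ratio of TPM to the mean of the 4 WT libraries, per library, for 5 receptor genes (top) and for the sum of 12 neutrophil markers without *Chil3* (bottom), with dotted lines between hosts. *Csf2rb2* is above the WT mean in all 4 *Rag2*-/- libraries, *Kit* is near the WT mean in *Rag2*-/- replicate 4 alone of its host, and *Csf3r* stays near the WT mean where the neutrophil sum is high.

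The ligands of these receptors were little expressed by the leukemia cells themselves. *Csf2*, *Il3* and *Il34* were at 0 in all 12 libraries, and *Csf3*, *Il5* and *Kitl* were at 0.712 TPM or less. The highest of these values was that of *Csf3* in NSG replicate 2, where 3 reads on a gene of 1 kb correspond to 0.503 TPM. *Csf1* (M-CSF) was at 3.45 ± 0.559 TPM in WT, 2.53 ± 0.678 in *Rag2*-/- and 3.28 ± 0.452 in NSG libraries (SD, n = 4). *Flt3l* (FLT3 ligand) was at 4.23 ± 0.792, 4.56 ± 0.274 and 4.07 ± 1.53 TPM. Neither was called (adjusted p of at least 0.274). The IL-5 receptor alpha chain *Il5ra*, the third partner of *Csf2rb*, did not exceed 0.296 TPM.

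Around the receptors, 4 genes of the pathway lists were called between *Rag2*-/- and WT mice, all of them higher, and 0 were called by limma between *Rag2*-/- and NSG or between NSG and WT mice. Of the 91 tested genes of these lists, 30 had an unadjusted p below 0.05 against WT (33%, beside 20.9% of all genes), 27 against NSG (29.7%, beside 12.6%) and 6 between NSG and WT (6.59%, beside 9.16%). In the latter comparisons voom on recovered reads called 2 between *Rag2*-/- and NSG (*Spred1* and *Osmr*) and 0 between NSG and WT. The 4 genes higher than in WT were 1 of 9 tested other receptors, 2 of 40 proximal signalling genes, 1 of 26 feedback and target genes, 0 of 14 regulators and 0 of 2 ligands, where 1.14% of all genes were called higher. The median log2 fold change against WT was 0.11, 0.10, 0.02 and 0.05 in the first 4 lists, beside 0.02 over all genes tested, and against NSG 0.15, 0.13, 0.08 and 0.08, beside 0.01.

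*Osmr*, the oncostatin M receptor, which like several cytokine receptors signals with gp130, was at 5.87 to 6.79 TPM in WT, 10.1 to 12.2 in *Rag2*-/- and 6.27 to 8.95 in NSG libraries. It exceeded WT by 0.73 (SE 0.11) on the log2 scale at an adjusted p of 0.0099, and NSG by 0.55 at an adjusted p of 0.0697, with no overlap between *Rag2*-/- and the other hosts, and the call against WT was kept with every library left out in turn. Its partner *Il6st* (gp130) was level between *Rag2*-/- and WT mice (18.9 TPM in both) and at 14.8 ± 1.202 TPM in NSG mice, where it was not called (adjusted p = 0.153 against *Rag2*-/-). *Il4ra*, which binds IL-4 and IL-13, was at 0.29 against WT (adjusted p = 0.0545), and *Cd34* and *Il7r* were at −0.26 and −0.43 (adjusted p = 0.294 and 0.306), none of them called.

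The SRC-family kinases *Fgr* and *Lyn*, which act below cytokine receptors in myeloid cells, passed the adjusted p against WT, as did 2.8% of all genes. *Fgr* was at 20.8 to 28.6 TPM in WT, 35.9 to 58.6 in *Rag2*-/- and 20.7 to 35.4 in NSG libraries. Its *Rag2*-/- range was apart from that of WT and, by a narrow margin, from that of NSG, and it was called against WT (log2 fold change 0.86, SE 0.19, adjusted p = 0.0356). That call was lost without a filter (adjusted p = 0.0731), with eBayes without a trend (0.0567) and on leaving out any WT library or *Rag2*-/- replicate 2 or 3 (up to 0.121). *Lyn* (0.27, adjusted p = 0.0123) remained inside the limit on the fold change. *Lyn* was the pathway gene with an adjusted p below 0.05 against NSG as well, as had 0.26% of all genes (0.33, adjusted p = 0.0184), at 198 to 212 TPM in WT, 245 to 252 in *Rag2*-/- and 191 to 211 in NSG libraries. The docking proteins *Gab3* (0.53, adjusted p = 0.0363, called) and *Gab2* (0.38, adjusted p = 0.0227, inside the limit), which recruit PI3K and SHP2, were higher than in WT, and *Gab3* reached 14.8 TPM in NSG libraries, within the range of *Rag2*-/-. The call of *Gab3* was lost without a filter (adjusted p = 0.0681), after quantile normalization (log2 fold change 0.49, inside the limit) and on leaving out any WT library or *Rag2*-/- replicate 2, 3 or 4 (adjusted p up to 0.122).

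Among inhibitors of the pathway, *Spred1*, which restrains RAS-MAPK signalling, was at 6.16 to 7.90 TPM in WT and 12.02 to 12.66 in *Rag2*-/- libraries and was called (log2 fold change 0.77, SE 0.14, adjusted p = 0.0193), except without WT replicate 2 or *Rag2*-/- replicate 2 or 3 (adjusted p up to 0.0746). In NSG mice it was at 6.52, 6.99, 11.1 and 6.98 TPM, so that 1 library was near *Rag2*-/- and the other 3 near WT, and the comparison with NSG gave 0.61 (adjusted p = 0.0993). *Inpp5d* (SHIP1), a phosphatase that opposes PI3K, was at 0.20 (adjusted p = 0.0363), inside the limit. *Dok2* and *Sh2b3*, adaptors that dampen cytokine signals, were at −0.47 and 0.17 (adjusted p = 0.0600 and 0.149), and the survival gene *Bcl2l1* was at −0.22 (adjusted p = 0.134). *Egr1*, an immediate early gene, had the lowest value in the lists and was picked out for that (−2.10, adjusted p = 0.292), with WT libraries from 2.36 to 127 TPM.

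The transcription factors that control these receptors were not called. *Spi1* (PU.1, a regulator of *Csf1r*, *Csf2ra* and *Csf3r*) was at a log2 fold change of 0.16 against WT (interval 0.06 to 0.25, adjusted p = 0.0750). *Cebpa*, which drives *Csf3r* and granulocyte fate, was at −0.36 (interval −0.66 to −0.07, adjusted p = 0.157). *Meis1* and *Gfi1* were at 0.13 and −0.12 (adjusted p = 0.160 and 0.212).

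**Figure D4:**
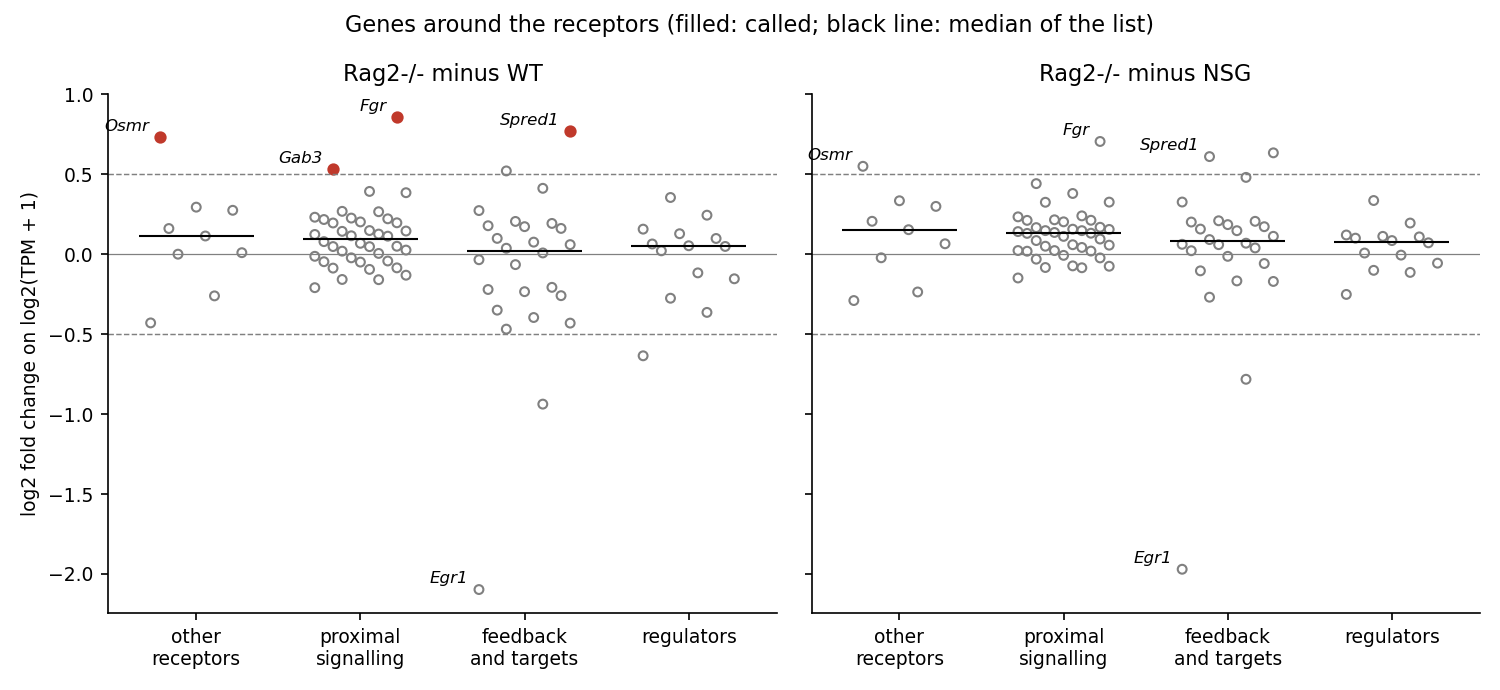
Log2 fold change on the log2(TPM + 1) scale of each tested gene in 4 lists around the receptors, against WT (left) and NSG (right), with filled points for called genes, black lines for list medians and dashed lines at the limit of 0.5. The 4 called genes, *Osmr*, *Fgr*, *Gab3* and *Spred1*, are on the left, and no point on the right is filled.

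The genes whose log2(TPM + 1) followed each receptor most closely over the 12 libraries were listed by Pearson r among all 15026 genes tested, as a description with no test. For *Csf2rb2* they were *Gm15925*, *Alox5* (5-lipoxygenase, of leukotriene synthesis) and *March1* (a ubiquitin ligase), each at 0.97, and for *Csf2rb* *H2-Q10* (0.98), *Arhgef10l* (0.97) and *Itpr3* (0.96). *Vsir* (VISTA, an immune checkpoint protein), *Ehd1* and *Tom1* were nearest to *Csf2ra* (0.96, 0.93 and 0.93). *Csf3r* went with *Anxa3*, *Trim16* and *Dnah8* (0.97, 0.96 and 0.96), and after host means were subtracted r was 0.97, 0.96 and 0.96. By rank (Spearman) the correlations with *Csf3r*, which was lowest in NSG replicate 3, were 0.92, 0.90 and 0.76. Over all the pairs listed here the rank correlation ran from 0.76 (*Dnah8*) to 0.98 (*Gm15925*). *Csf1r* went with *Ccr2*, the chemokine receptor of monocytes, *Sidt2* and *Nlrc4* (0.90, 0.89 and 0.89). *Kit* went with *BC035044*, *Agbl5* and *Mtr* (0.91 each), *Flt3* with *Aars*, *Caly* and *Satb1* (0.88, 0.88 and 0.87), and *Il3ra* with *Rapsn*, *Slc9a5* and *Fam71e1* (0.88, 0.87 and 0.86). Among the receptors themselves, *Csf2rb2* and *Kit* ran in opposite directions (r of −0.82, and −0.66 after host means were subtracted). So did *Kit* and *Csf2rb* (−0.72 and −0.76), *Kit* and *Csf2ra* (−0.58 and −0.71), and *Csf3r* and *Flt3* (−0.46 and −0.70).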

How the data were processed

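The authors aligned paired reads with HISAT2 on Galaxy (mm10), took raw counts per gene and turned them into TPM, the deposited unit. The counting tool, annotation and gene lengths are not given in the sources used here. Multiplied by the exon length in GENCODE M21, 98.7% to 99.0% of the values of genes with at most 20 reads were within 0.05 of whole reads. Even counts were commoner than odd ones, so mates may have been counted separately.

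Genes whose mean reached 1 TPM (15026) were fitted on log2(TPM + 1) with limma 3.58.1 under R 4.3.3, using lmFit, contrasts.fit and a trended eBayes, over 12 libraries with 9 residual degrees of freedom. A fold change on this scale understates that of low genes. The tools Python 3.11.15, pandas 2.3.3, Biopython 1.88 and matplotlib 3.10.9 were used besides. The receptors, the lists and the tests were chosen with earlier results of these data known. Named were all receptors, per list the called genes and up to 4 others with the smallest adjusted p, and per receptor the 3 genes with the highest r. A few genes under this rule are not reported here. That replicates are separate mice rests on the labels, and p-values measure the spread between these libraries. Alternatives were a pseudocount of 0.1, 3 other filters (12518, 15614 and 27667 genes), 2 scalings, eBayes without a trend, 8 libraries alone, the replicate block, no limit on the fold change, each library left out and, added after seeing the data, voom on recovered reads (15001 genes).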

Additional observations from a re-analysis of the deposited data

Results flagged for a closer look

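In 7 of 120 groups of 4 libraries (90 for the receptors and the pathway genes under the naming rule, 30 for the sums and ratios given above), the gap between an extreme library and its neighbour, divided by the range of the group, passed the 95% limit of Dixon's test, where chance gives about 6. *Gab2* was highest in *Rag2*-/- replicate 3 (56.5 TPM against 53.1 in the next, 0.889 of the range). *Spred1* was highest in NSG replicate 3 (11.1 against 6.99 TPM, 0.898). *Sh2b3* was highest in WT replicate 4 (103.6 against 91.5 TPM, 0.896), and *Spi1* in WT replicate 1 (582 against 551 TPM, 0.898). The sum of the 8 receptors was highest in NSG replicate 4 (1428 against 1360.0 TPM, 0.856), that of the neutrophil markers without *Chil3* lowest in *Rag2*-/- replicate 4 (688 against 1907 TPM, 0.831) and that of the erythroid markers highest in NSG replicate 1 (12.1 against 4.12 TPM, 0.881). None of the 8 receptor genes by itself was among them.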

How the results depend on the processing

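The count of receptors called between *Rag2*-/- and WT mice, 1 as reported, fell to 0 after median-ratio scaling and with voom on recovered reads, and ranged from 0 to 2 with a library left out. The counts of 0 receptors in the other comparisons stayed at 0 in all of these. The pathway count against WT, 4 as reported, was 2 without a filter, 2 with the replicate block, 8 without the limit on the fold change and 1 to 5 with a library left out (1, *Osmr*, without WT replicate 2 or *Rag2*-/- replicate 2 or 3). Against NSG it was 0 as reported, 1 without that limit (*Lyn*), 2 with voom (*Spred1* and *Osmr*) and 0 to 4 with a library left out (4, *Spred1*, *Spred2*, *Socs3* and *Osmr*, without NSG replicate 3). *Csf1r* between *Rag2*-/- and WT was 0.0088 after quantile normalization, and −0.045 to 0.070 with a library left out. With a library left out, *Il3ra* against WT was −0.070 to 0.054, *Csf3r* against NSG −0.046 to 0.23, and *Flt3* against NSG −0.12 to 0.021. Same-numbered libraries did not deviate together (r from −0.09 to 0.03 in 12 pairs, 0 above 0.1). This gave no sign that the numbers pair them, but a small shared effect could go unseen. With the replicate block *Csf2rb2* remained called against WT (adjusted p = 0.0360) and *Fgr* and *Gab3* did not (0.0813 and 0.0808). The cause of these changes was not tested. The receptors rested on at least 1040 reads in every library, but ligands at 0 are only below about 3 reads.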
